A study of Homo sapiens with 16 samples.

Results

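The genes described here are 10 members of the folding and quality control machinery of the endoplasmic reticulum (ER), read on Affymetrix 3-prime arrays of the human pancreatic cancer line MIA PaCa-2. They are HSPA5, HSP90B1, CALR, PDIA4, PDIA6, DNAJB9, XBP1, HERPUD1, CRELD2 and SDF2L1, taken by name, and all 10 are among the 19775 genes measured. Of several probe sets of a gene, the 1 with the highest mean signal was used, and the others served as a check. The 4 groups were polysome RNA of PP242-treated cells, polysome RNA of vehicle-treated cells, cytosolic RNA of PP242-treated cells and cytosolic RNA of vehicle-treated cells, with 4 arrays each. PP242, an inhibitor of the mTOR kinase, was given at 2.5 µM for 12 hours, and the vehicle was DMSO. Polysome RNA came from gradient fractions whose mRNAs carried more than 3 ribosomes. All groups were this 1 cell line in the same serum-containing medium, at 1 dose and 1 time. The series asks which mRNAs change in abundance and which in ribosome association when the mTOR and 4E-BP1 axis is blocked.

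Proteins that enter the secretory pathway fold in the ER with the help of chaperones, lectins and disulfide isomerases. When unfolded proteins accumulate there, the sensors IRE1 (gene ERN1), PERK (gene EIF2AK3) and ATF6 start the unfolded protein response. IRE1 splices the mRNA of XBP1, which then encodes an active transcription factor, and ATF6 is cut to release another. XBP1 and ATF6 act on ER stress elements in the promoters of chaperone genes, while PERK phosphorylates eIF2alpha and so favours translation of ATF4. The 3-prime arrays measured total XBP1 mRNA, and its spliced and unspliced forms were not told apart.

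The promoter stretches of 6 of the 10 genes show where the letters of an ER stress element stand. Such letters were found in most of these genes, but not in PDIA4 and DNAJB9. Shown are 3 of the 4 genes called lower on polysomes (HSPA5, CRELD2 and SDF2L1), the factor XBP1 and the other ERSE-II carrier HERPUD1. HSP90B1 is shown as well, and HSP90B1, XBP1 and HERPUD1 were not called. PDIA4, the other gene called lower, held none of the elements searched and is not shown. Sequences are from RefSeq (GRCh38.p14), 5′ to 3′ on the strand of the gene. All 10 genes had a promoter in the table, with 13 annotated starts between them, and only the 250 bases before a start were searched. The ER stress element (ERSE) was searched as CCAAT followed by 9 bases of any kind and CCACG, ERSE-II as ATTGG followed by 1 base of any kind and CCACG, and the unfolded protein response element (UPRE) as TGACGTGG, each on both strands. Capitals mark the fixed letters of an exact match, and a match on the opposite strand reads CGTGG before ATTGG (for ERSE-II, before CCAAT). The stretches lie at chr9:125241350-125241449 (HSPA5, minus strand), chr12:103930176-103930275 (HSP90B1, plus), chr22:28800570-28800669 (XBP1, first start, minus), chr16:56931985-56932084 (HERPUD1, plus), chr22:49918514-49918613 (CRELD2, plus) and chr22:21642074-21642173 (SDF2L1, plus). All 6 lie before the annotated start of their gene.
HSPA5: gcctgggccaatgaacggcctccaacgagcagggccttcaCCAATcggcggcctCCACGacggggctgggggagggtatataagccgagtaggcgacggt
HSP90B1: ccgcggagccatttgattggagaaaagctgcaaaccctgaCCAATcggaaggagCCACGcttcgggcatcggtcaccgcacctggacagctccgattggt
XBP1: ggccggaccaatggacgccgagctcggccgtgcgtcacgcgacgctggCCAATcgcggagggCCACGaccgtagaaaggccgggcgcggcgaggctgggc
HERPUD1: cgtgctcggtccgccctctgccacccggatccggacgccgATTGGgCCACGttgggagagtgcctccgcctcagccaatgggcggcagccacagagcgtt
CRELD2: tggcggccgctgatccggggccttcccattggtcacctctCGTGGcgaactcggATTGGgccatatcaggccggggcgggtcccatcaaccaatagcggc
SDF2L1: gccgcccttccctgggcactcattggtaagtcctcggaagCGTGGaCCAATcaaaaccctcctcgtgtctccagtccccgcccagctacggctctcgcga

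Of the 10 genes, 6 held an exact ERSE: HSPA5, HSP90B1, CALR, PDIA6 (at its second start), XBP1 (at its first start) and CRELD2. Exact ERSE letters stood in 26 of 35116 promoter windows of the same length (0.074%). HERPUD1 and SDF2L1 held the shorter ERSE-II, which stood in 18 windows (0.0513%). The UPRE letters stood in 215 windows (0.612%) and in none of these 13. For PDIA4 and DNAJB9 none of the 3 elements was found in these windows. HSPA5 carried its ERSE 66 to 48 bases before the start, XBP1 52 to 34 bases, CRELD2 80 to 62 bases and CALR 225 to 207 bases. HSP90B1 carried 2 exact copies, 1 on each strand. With 1 mismatch allowed, ERSE letters were found in 477 windows (1.36%) and in 8 of the 10 genes, HERPUD1 and SDF2L1 being the additions, and the 1-mismatch copy of SDF2L1 shares its CCAAT with the ERSE-II. A match is a description of letters and shows no binding. The 10 genes were taken by name, and these elements are known from promoters of chaperone genes. The shares are therefore no test of enrichment.

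**Figure D1:**
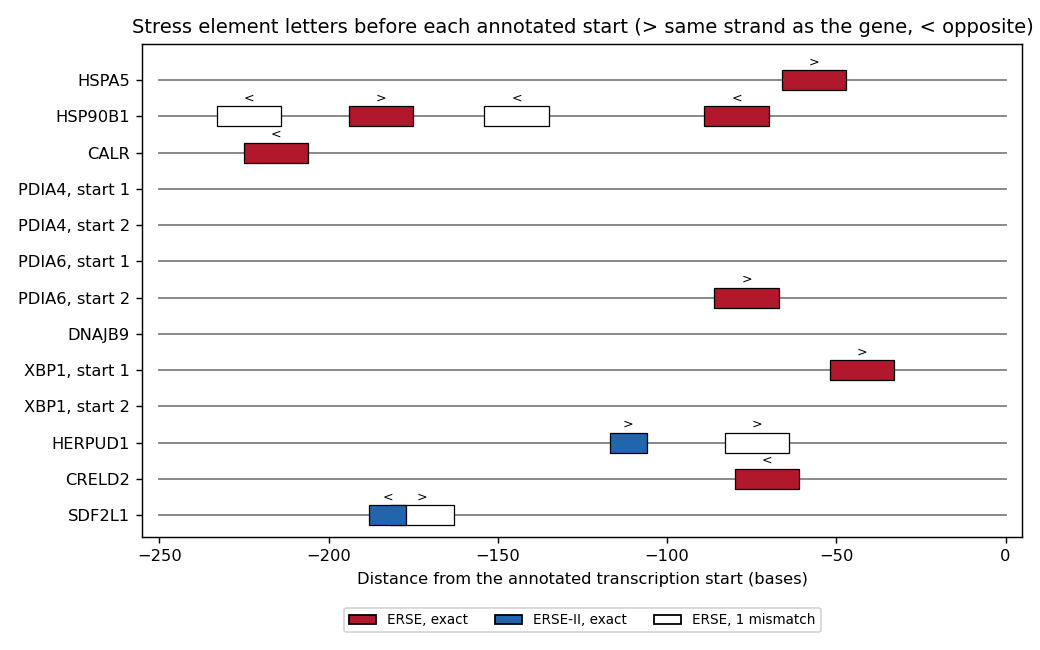
Positions of ERSE and ERSE-II letters in the 250 bases before each annotated start of the 10 genes (x axis: distance from the start in bases; 1 line per annotated start; boxes: red for an exact ERSE, blue for an exact ERSE-II, white for an ERSE with 1 mismatch; > and < give the strand). The exact ERSE of HSPA5 and XBP1 lies within 66 bases of the start, and the lines of PDIA4 and DNAJB9 are empty.

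Arrays of 1 group correlated at 0.979 to 0.998 over all genes. The median SD of a gene was 0.147 in polysome PP242, 0.159 in polysome vehicle, 0.245 in cytosolic PP242 and 0.122 in cytosolic vehicle arrays, so the cytosolic PP242 group was the noisiest. The deposited values are log2 signals whose array medians ran from 4.57 to 4.63 in polysome and from 5 to 5.05 in cytosolic arrays. Effects of PP242 are therefore relative to the other mRNAs of the same pool, and the number of arrays limits their precision. Of the 6 epithelial markers of the labelled carcinoma cell, KRT8, KRT18 and KRT19 had group means of 9.29 to 14.3, KRT7 of 6.29 to 6.40, and EPCAM and CDH1 did not pass 3.9 in any group. With PP242, KRT19 rose by 1.13 on polysomes and by 1.57 in the cytosol and KRT18 by 0.39 and by 0.78, and KRT8 rose in the cytosol by 0.86. The mean level of that list ran from 8.61 to 8.67 on polysome PP242, 8.21 to 8.45 on polysome vehicle, 8.10 to 8.69 on cytosolic PP242 and 7.62 to 7.79 on cytosolic vehicle arrays. Marker genes of normal pancreas (6 measured), leukocytes (3) and endothelium (4) had group means of at most 5.92, and 0 were called in either pool. Of 6 fibroblast markers, COL1A2 and COL3A1 were measured at 11.4 and 6.55 in polysome PP242 RNA against 12.2 and 7.56 in polysome vehicle RNA, and both were called lower in both pools. The mean level of that marker list ran from 5.99 to 6.2 on polysome PP242, 6.32 to 6.52 on polysome vehicle, 5.90 to 6.11 on cytosolic PP242 and 6.16 to 6.38 on cytosolic vehicle arrays, while DCN, LUM and PDGFRA stayed at or under 5.26. The part of these keratin and collagen genes in the results below was not tested.

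PP242 lowered 4 of the 10 ER genes in polysome RNA and raised none. SDF2L1 fell most, and PDIA4, CRELD2 and HSPA5 fell by smaller amounts. Of all 19775 genes, 6.55% were called lower on polysomes (1295 genes), 6.81% higher (1346 genes) and 13.4% in either direction. A gene was called when the adjusted p of limma, taken over all genes with the Benjamini-Hochberg procedure, was under 0.05. The median effect over the 10 genes was -0.38 on the log2 scale, against -0.005 over all genes. In RNA from whole dishes, fewer cells carrying an mRNA and less of it per cell cannot be told apart.

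SDF2L1 encodes a stress-induced partner of the HSPA5 chaperone cycle that keeps misfolding proteins from aggregating. Its log2 signals in polysome RNA were 7.85, 7.70, 8.32 and 8.15 in PP242 arrays 1 to 4, against 9.24, 9.25, 9.44 and 9.57 in vehicle arrays 1 to 4. All PP242 arrays lay below all vehicle arrays. The difference was -1.37 ± 0.19 (standard error, n = 4 per group, limma adjusted p = 4.36e-05), which is 2.58-fold lower with PP242. Within replicate numbers 1 to 4 the difference was -1.39, -1.55, -1.12 and -1.42.

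HSPA5 (BiP, or GRP78) is the HSP70 chaperone of the ER and holds the stress sensors inactive while folding demand is low. Polysome RNA gave 12.53, 12.65, 12.48 and 12.42 in PP242 arrays 1 to 4, against 12.84, 12.98, 12.82 and 12.88 in vehicle arrays 1 to 4. The groups did not overlap, and the difference was small beside the level: -0.36 ± 0.10 (adjusted p = 0.0150), or 1.28-fold lower with PP242. Within a replicate number the difference ran from -0.31 to -0.46. Leaving out any 1 replicate number ended the call (adjusted p = 0.0539 to 0.0804), as did cyclic loess normalization over all arrays (-0.20, adjusted p = 0.274). A second probe set of HSPA5, with means of 6.94 in PP242 and 7.70 in vehicle arrays, showed -0.76 (adjusted p = 5.90e-04).

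DNAJB9 (ERdj4) is a J-domain partner that directs HSPA5 to its clients and to the sensor IRE1. Its polysome signals were 8.02, 8.07, 7.96 and 7.90 with PP242, against 8.17, 8.06, 7.44 and 7.95 with vehicle. The groups overlapped, and the difference of 0.08 ± 0.20 did not pass (adjusted p = 0.875) and was -0.06 without replicate number 3. The other DNAJB9 probe sets showed -0.03 (adjusted p = 0.971) and 0.40 (adjusted p = 0.519).

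HSP90B1 (GRP94), the HSP90 of the ER, had polysome signals of 10.59, 11.04, 11.02 and 10.62 in PP242 cells, against 10.82, 10.52, 10.79 and 10.41 in vehicle cells. It was the gene with the highest effect of the 10 on polysomes, 0.18 ± 0.15, which did not pass (adjusted p = 0.555). Replicate number 1 gave -0.23 and the other 3 gave 0.21 to 0.52. The probe set carries the suffix x_at, which marks probes that can also bind other transcripts. The probe sets used for CALR and PDIA6 carry this suffix too. For HSP90B1, 2 further probe sets that list a second gene as well were not used.

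CALR, calreticulin, is a calcium-binding lectin that holds newly glycosylated proteins until they are folded. Polysome signals were 9.77, 9.91, 10.27 and 10.27 with PP242, against 10.27, 10.37, 10.48 and 10.68 with vehicle, so the groups met at 10.27. The difference of -0.40 ± 0.17 did not pass (adjusted p = 0.151). It passed with the replicate number as a block (adjusted p = 0.00928). Without pairing, it passed with array weights (adjusted p = 0.0265) and with the mean of all its probe sets (adjusted p = 0.0260). Its probe sets disagreed: another of them, with means of 5.06 in PP242 and 5.73 in vehicle arrays, showed -0.67 (adjusted p = 0.00693), and the third -0.07 (adjusted p = 0.935). The probe set used and the third carry the suffix x_at, and the one at -0.67 does not.

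The disulfide isomerases form and rearrange the disulfide bonds of client proteins. PDIA4 (ERp72) had polysome signals of 11.32, 11.36, 10.88 and 11.05 with PP242, against 11.82, 12.02, 11.45 and 11.49 with vehicle. The groups did not overlap, although replicate numbers 3 and 4 ran lower than 1 and 2 in both. The difference was -0.54 ± 0.13 (adjusted p = 0.00767), or 1.46-fold lower with PP242, and within a replicate number it ran from -0.44 to -0.66. The other PDIA4 probe set showed -0.28 (adjusted p = 0.389). PDIA6 (P5), an isomerase that works together with HSPA5, was measured at 12.59, 12.77, 12.74 and 12.69 with PP242, against 12.71, 12.89, 12.78 and 12.87 with vehicle. Those groups overlapped, and -0.12 ± 0.09 did not pass (adjusted p = 0.528). For its 3 other probe sets, the polysome effect lay between -0.18 and -0.06, and none passed.

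CRELD2 is an ER-resident protein with EGF-like repeats that is induced by ER stress. Its polysome signals were 11.01, 11.12, 11.05 and 10.83 in PP242 arrays, against 11.45, 11.60, 11.65 and 11.56 in vehicle arrays. The groups did not overlap, and the difference was -0.56 ± 0.14 (adjusted p = 0.00852), 1.48-fold lower with PP242. Without replicate number 4 the call was lost (adjusted p = 0.0765). CRELD2 and SDF2L1 have 1 usable probe set each, so no second probe set could be set beside these values.

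XBP1 is the transcription factor whose mRNA IRE1 splices. Polysome RNA gave 7.19, 7.24, 7.38 and 7.47 with PP242, against 7.47, 7.57, 7.80 and 8.18 with vehicle, and the groups met at 7.47. Replicate numbers 1 to 4 gave -0.28, -0.33, -0.42 and -0.71. The difference of -0.44 ± 0.15 missed the threshold (adjusted p = 0.0574) and passed with the replicate number as a block (adjusted p = 0.00718). Without an intensity trend, with genes of low mean left out, with array weights or with each array centred on its median, XBP1 passed too (adjusted p = 0.0213 to 0.0485). It did not pass with any 1 replicate number left out (adjusted p = 0.103 to 0.184) or with the mean of both probe sets (-0.15, adjusted p = 0.602). The second XBP1 probe set, with means of 4.77 in PP242 and 4.64 in vehicle arrays, turned the direction (0.13, adjusted p = 0.801).

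HERPUD1, a membrane protein that organises the ER-associated degradation complex, had polysome signals of 9.92, 9.96, 9.78 and 9.86 with PP242, against 10.07, 10.04, 9.80 and 10.06 with vehicle. The groups overlapped. The difference of -0.11 ± 0.10 did not pass (adjusted p = 0.593).

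**Figure D2:**
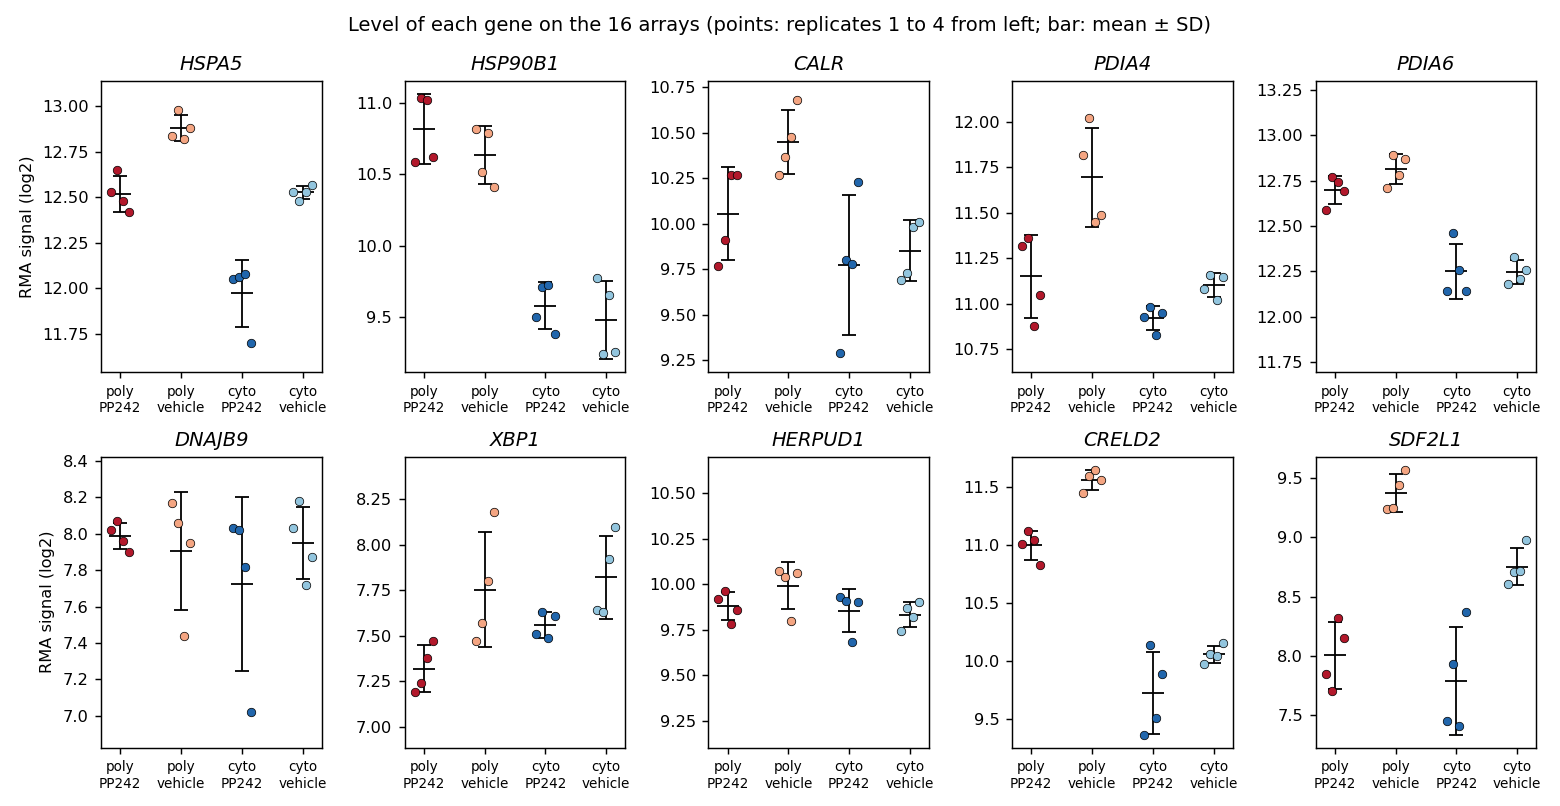
RMA log2 signal of each of the 10 genes on all 16 arrays (y axis, log2; x axis: polysome PP242, polysome vehicle, cytosolic PP242, cytosolic vehicle; points are replicates 1 to 4 from left, bars the mean ± SD, n = 4). The PP242 points of SDF2L1, HSPA5, PDIA4 and CRELD2 all lie below the vehicle points in polysome RNA, and the y axis differs between panels.

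Groups that do not overlap in polysome RNA were found for these same 4 genes, all lower with PP242, and 9.86% of all genes had such a pattern in that direction. None of the 10 genes had its PP242 arrays all above its vehicle arrays, against 9.48% of all genes. With the replicate number as a block, 6 of the 10 genes were called lower on polysomes, CALR and XBP1 being added. Over all genes the block raised the number called lower on polysomes as well, from 1295 to 1919.

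In cytosolic RNA, PP242 lowered 2 of the 10 genes, SDF2L1 and HSPA5, and raised none. Over all genes, 7.91% were called lower, 8.54% higher and 16.5% in either direction. The median of the 10 genes was -0.20, against 0.04 over all genes. The cytosolic PP242 arrays varied more among themselves than those of any other group, and for DNAJB9, HSPA5, CRELD2, CALR, PDIA6 and SDF2L1 the SD of this group was the largest of the 4.

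SDF2L1 had cytosolic signals of 7.45, 7.93, 7.41 and 8.37 with PP242, against 8.61, 8.71, 8.72 and 8.98 with vehicle. The groups did not overlap, and PP242 array 4 came nearest to the vehicle arrays. The difference was -0.97 ± 0.19 (adjusted p = 0.00130), or 1.95-fold lower with PP242. HSPA5 gave 12.05, 12.06, 12.08 and 11.70 with PP242, against 12.53, 12.48, 12.53 and 12.57 with vehicle. Its difference of -0.56 ± 0.10 (adjusted p = 4.61e-04, 1.47-fold lower) was carried by all 4 replicate numbers, of which number 4 fell most, by 0.87.

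CRELD2 gave 9.37, 10.14, 9.51 and 9.89 in cytosolic PP242 RNA, against 9.98, 10.06, 10.05 and 10.16 in cytosolic vehicle RNA. PP242 arrays 1 and 3 lay below all vehicle arrays, and array 2 lay among them. The difference of -0.34 ± 0.14 did not pass (adjusted p = 0.105). It passed with the replicate number as a block (adjusted p = 0.0466). Without PP242 arrays 2 and 4 the difference was -0.62. Those arrays held the highest CRELD2 readings of their group, so leaving them out was bound to enlarge the fall.

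PDIA4 was lower in all 4 PP242 arrays, at 10.93, 10.98, 10.83 and 10.95, than in the vehicle arrays, at 11.08, 11.16, 11.02 and 11.15. The difference, -0.18 ± 0.13, did not pass (adjusted p = 0.380), and the other PDIA4 probe set gave 0.18 (adjusted p = 0.519). XBP1 gave 7.51, 7.63, 7.49 and 7.61 with PP242, against 7.64, 7.63, 7.92 and 8.10 with vehicle, with 2 arrays tied at 7.63 (-0.26 ± 0.15, adjusted p = 0.242). Non-overlapping groups, lower with PP242, were found for HSPA5, PDIA4 and SDF2L1, and 8.34% of all genes had that pattern. The opposite pattern was found for 0 of the 10 genes and for 9.34% of all genes.

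DNAJB9 showed -0.23 ± 0.20 (adjusted p = 0.466) in cytosolic RNA. Its PP242 array 4 read 7.02 and the other 3 read 7.82 to 8.03, within the vehicle range of 7.72 to 8.18. The other DNAJB9 probe sets gave -0.32 (adjusted p = 0.321) and -0.705 (adjusted p = 0.123). CALR spread from 9.29 to 10.23 in the PP242 arrays, around the vehicle values of 9.69 to 10.01, and its -0.08 ± 0.17 did not pass (adjusted p = 0.801). The other CALR probe sets were both called lower in the cytosol, at -0.59 (adjusted p = 0.0149) and -0.92 (adjusted p = 0.0251), so the CALR result depends on the probe set. HSP90B1 (0.10 ± 0.15), PDIA6 (0.01 ± 0.09) and HERPUD1 (0.02 ± 0.10) had adjusted p-values of 0.704 to 0.979. The cytosolic direction of HSP90B1 turned with its other probe set (-0.34, adjusted p = 0.277) and with the mean of both (-0.12). PDIA6 and HERPUD1, both near 0, turned under several alternatives as well, to at most -0.11 and -0.17.

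**Figure D3:**
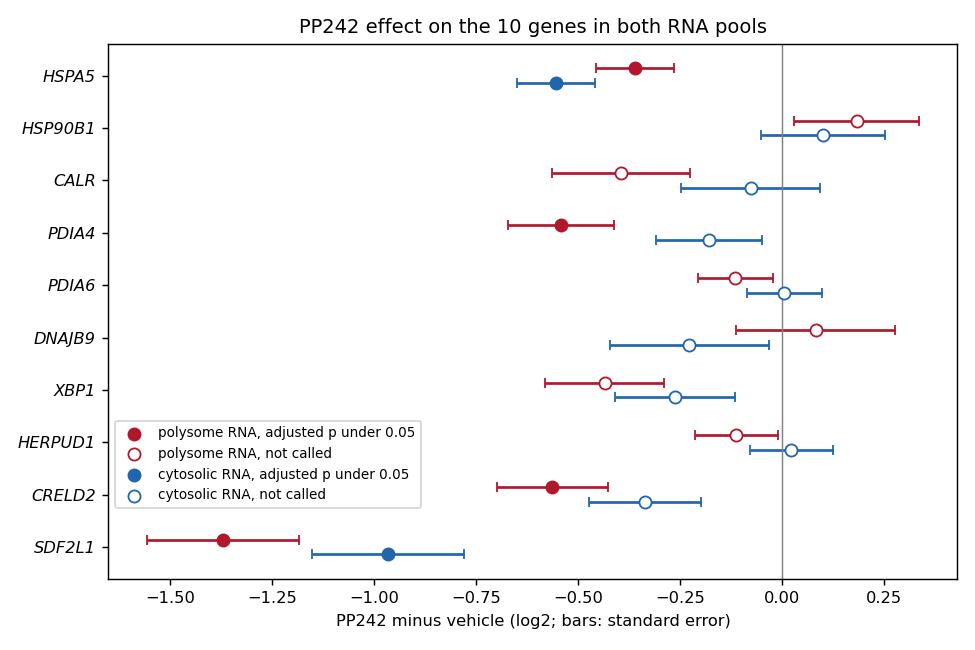
Effect of PP242 on the 10 genes (x axis: PP242 minus vehicle, log2; points: limma estimates, red for polysome and blue for cytosolic RNA; filled where the adjusted p over all genes is under 0.05; bars: standard error). SDF2L1 at -1.37 on polysomes and -0.97 in the cytosol lies farthest from 0, and HSP90B1 lies above 0 in both pools with the probe set used.

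Did PP242 change the ribosome association of these mRNAs, beyond the change in the cytosol? The difference between the polysome and cytosolic effects was called for 0 of the 10 genes and for 0 of 19775 genes (0%) by limma. At an unadjusted p under 0.05, 1750 genes (8.85%) and 0 of the 10 genes passed with the probe sets used. Other probe sets of DNAJB9 (1.10), CALR (0.85) and HSP90B1 (0.595) passed that limit, all above 0. None of them was called after adjustment, and no probe set of the 10 genes below 0 passed the limit. With each culture as a block, the number of genes called was 0 as well. On simulated data with polysome changes, the limma association comparison recovered 2% of genes planted at a log2 change of 0.5 and 66% at 1. The absence of calls therefore does not show that association was unchanged. The 10 estimates had standard errors of 0.13 to 0.28 and adjusted p-values of 0.564 to 0.914. With the probe sets used, 7 of them were below 0, with a median of -0.15 against -0.04 over all genes.

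The estimate farthest below 0 was SDF2L1, at -0.41 ± 0.26, where the 4 replicate numbers gave -0.23, -0.77, 0.19 and -0.81 and so did not move together. Without cytosolic PP242 arrays 2 and 4, SDF2L1 gave -0.05, CRELD2 turned to 0.06 (against -0.23 with them), and PDIA4 was lowest at -0.32, none of them called. Those arrays held the highest SDF2L1 and CRELD2 readings of their group. Leaving them out was therefore bound to raise the SDF2L1 and CRELD2 estimates. With all arrays, PDIA4 had -0.36 ± 0.18, and its replicate numbers gave -0.35, -0.48, -0.38 and -0.24, all below 0. CALR (-0.32 ± 0.24) and PDIA6 (-0.12 ± 0.13) were below 0 in all 4 numbers, whereas HSPA5 (0.20 ± 0.13) and HSP90B1 (0.08 ± 0.22) were above 0 in all 4. The signs of CALR and HSPA5 turned with the probe set: the mean over probe sets gave 0.15 for CALR and -0.07 for HSPA5, and single other probe sets reached 0.85 for CALR and -0.34 for HSPA5, none of them called. DNAJB9 had the highest estimate, 0.31 ± 0.28, with replicate number 4 at 0.80. Its other probe sets gave 0.29 and 1.10, neither of them called after adjustment. The other HSP90B1 probe set gave 0.595. Those of XBP1 (0.11) and HERPUD1 (0.01) and another PDIA6 probe set (0.04) turned above 0, none of them called.

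A regression of polysome on cytosolic values within each gene, with treatment as a term, called 702 genes (319 higher and 383 lower). CRELD2 (-0.55 ± 0.11, adjusted p = 0.0203) and SDF2L1 (-1.31 ± 0.27, adjusted p = 0.0203) were among those called lower. Their fitted slopes on the cytosolic values were 0.04 and 0.06, so these estimates nearly equal the polysome effects themselves. For CRELD2 and SDF2L1 the regression thus removed little of the cytosolic change, and its calls cannot be read as a change in association. Over all genes the number called depends on the method, and a shift shared by all mRNAs cannot be seen in either method.

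The polysome over cytosolic level was read in vehicle-treated cells as a relative measure, which does not give the share of an mRNA on polysomes. After centring each array on its median, 8 of the 10 genes were called higher in polysome than in cytosolic RNA and none lower, against 2 and 3 called higher under 2 other scalings given below. Among all genes 36.9% were called higher, 15.4% lower and 52.3% in either direction. The median of the 10 genes was 0.91 on the log2 scale, against 0.17 over all genes.

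CRELD2 had the largest polysome over cytosolic difference, 1.78, 1.86, 1.95 and 1.74 in vehicle replicates 1 to 4 (1.83 ± 0.14, adjusted p = 1.38e-08). HSP90B1 followed at 1.49 ± 0.16 (adjusted p = 3.87e-07), with replicate values of 1.36 to 1.6. The next 5 genes lay close together: SDF2L1 at 0.95, CALR at 0.93, PDIA4 at 0.92, PDIA6 at 0.90 and HSPA5 at 0.68, with standard errors of 0.09 to 0.19. HERPUD1 was called at 0.49 ± 0.10, whereas DNAJB9 (0.29 ± 0.19) and XBP1 (0.26 ± 0.16) were not.

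These differences rest on the scaling, since the pools appear to have been normalized apart. Under quantile normalization over all arrays the median of all genes moved to 0.02, 2 of the 10 genes were called (HSP90B1 and CRELD2), and HSPA5 (-0.02) and HERPUD1 (-0.13) turned below 0. Cyclic loess left 3 called, SDF2L1 being the third, with HSPA5 at -0.16. HSP90B1 and CRELD2 were called under each scaling tried.

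In PP242-treated cells the same differences are given as values, without a test. CRELD2 had 1.94, 1.32, 1.85 and 1.27 with PP242, against the vehicle values above, and SDF2L1 had 0.70, 0.11, 1.22 and 0.11 with PP242, against 0.94, 0.86, 1.07 and 0.93 with vehicle. For both genes PP242 replicates 2 and 4 were the low ones, and these are the numbers whose cytosolic PP242 arrays read high. HSP90B1 averaged 1.56 ± 0.12 with PP242 and 1.49 ± 0.10 with vehicle (SD, n = 4), and XBP1 averaged 0.08 ± 0.13 with PP242 and 0.26 ± 0.12 with vehicle.

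**Figure D4:**
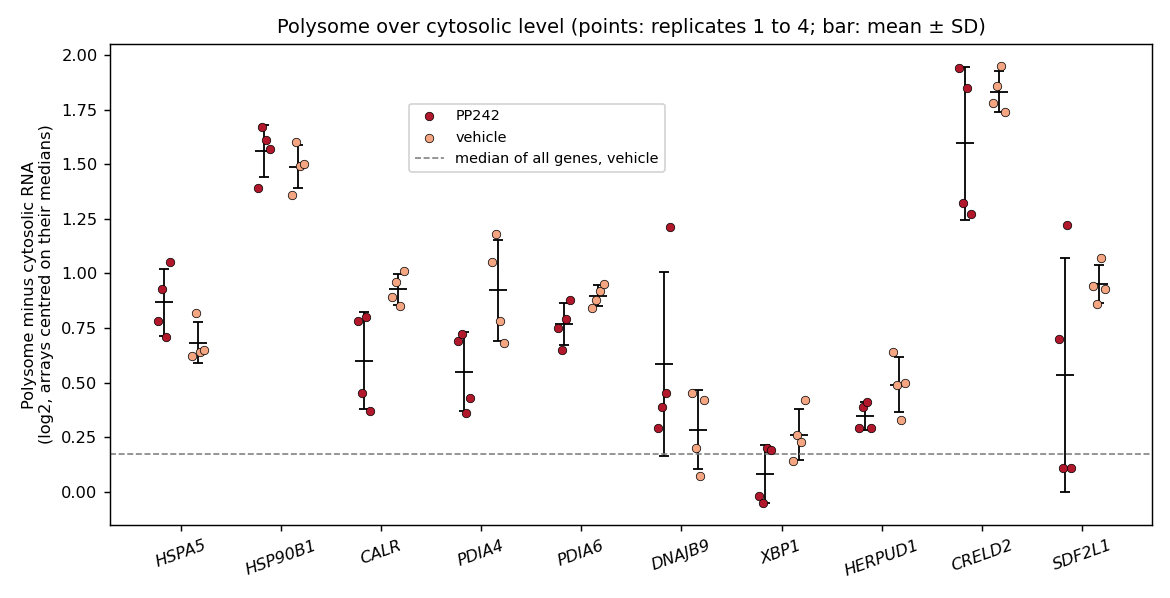
Polysome minus cytosolic level of the 10 genes after centring each array on its median (y axis, log2; points: replicates 1 to 4; bars: mean ± SD, n = 4; PP242 left of vehicle for each gene; dashed line: median of all genes in vehicle, 0.17). CRELD2 and HSP90B1 lie highest in both treatments, and the PP242 values of SDF2L1 spread from 0.11 to 1.22.

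The next list held the sensors and transcription factors of the unfolded protein response. Of 24 measured, 4 were called higher and 0 lower on polysomes (6.81% and 6.55% of all genes), and 7 higher and 3 lower in the cytosol (8.54% and 7.91% of all genes), with medians of 0.15 and 0.29 (all genes, -0.005 and 0.04). ERN1, which encodes the sensor IRE1, was measured at 6.86, 7.15, 7.69 and 7.41 in polysome PP242 RNA, against 5.24, 5.92, 5.79 and 6.18 in polysome vehicle RNA. Its groups did not overlap in either pool. The polysome difference was 1.495 ± 0.19 (adjusted p = 1.57e-05). In cytosolic RNA ERN1 gave 7.42, 7.62, 7.69 and 7.25 with PP242, against 6.19, 6.41, 6.42 and 6.38 with vehicle (1.15 ± 0.19, adjusted p = 2.55e-04).

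DDIT3 (CHOP), a transcription factor of prolonged ER stress, rose by 0.70 in both pools (adjusted p = 0.00702 on polysomes and 0.00601 in the cytosol). CREB3L4, a membrane-bound transcription factor related to ATF6, rose by 0.80 in both, and MBTPS1, the Golgi protease that makes the first cut in ATF6, rose by 0.43 on polysomes and 0.67 in the cytosol. EIF2AK3 (PERK) fell in the cytosol, by 0.85 (adjusted p = 0.00454), and showed -0.18 on polysomes (adjusted p = 0.665). Whether the 2 pools differ was not shown for EIF2AK3 (association 0.67 ± 0.27, adjusted p = 0.558), whose cytosolic PP242 arrays had an SD of 0.55. ATF6 (0.15 on polysomes and 0.29 in the cytosol) and ATF4 (-0.19 and 0.02) were not called. PPP1R15A, which reverses the phosphorylation of eIF2alpha, rose by 0.59 in the cytosol (adjusted p = 0.0205) and showed 0.46 on polysomes (adjusted p = 0.0808). PPP1R15B, of the same list, went the other way, with -0.67 in the cytosol (adjusted p = 0.0159) and -0.40 on polysomes (adjusted p = 0.188).

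Other ER chaperones and folding enzymes were called in both directions. Of 38 measured, 4 were called higher and 4 lower on polysomes, where 13.4% of all genes were called, and 7 higher and 4 lower in the cytosol, where 16.5% were, with medians of 0.07 and 0.13. The prolyl isomerase FKBP14 fell by 0.87 (adjusted p = 1.31e-04) on polysomes and by 0.62 in the cytosol. MANF, a secreted ER stress protein that binds HSPA5, fell by 0.72 (adjusted p = 2.43e-04) and by 0.48. DNAJB11, a J-domain partner of HSPA5, fell by 0.68 on polysomes (adjusted p = 0.00119) and showed -0.35 in the cytosol (adjusted p = 0.0764). UGGT1, which checks the folding of glycoproteins, rose by 0.54 on polysomes (adjusted p = 0.00333), with 0.19 in the cytosol. FKBP9 and CRELD1, the paralogue of CRELD2, rose in both pools, CRELD1 by 0.58 and 0.67 and FKBP9 by 0.32 and 0.55, and TXNDC11 rose in the cytosol by 0.56.

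ER-associated degradation returns misfolded proteins to the cytosol for the proteasome. Of its 32 measured genes, 5 were called higher and 2 lower on polysomes (6.81% and 6.55% of all genes), and 7 higher and 1 lower in the cytosol (8.54% and 7.91%), with medians of 0.07 and 0.15. EDEM1, a lectin that delivers misfolded glycoproteins, rose by 0.79 (adjusted p = 0.00403) on polysomes and 0.52 in the cytosol. MAN1B1, the mannosidase that marks them, rose by 0.72 and 0.80, and the lectin OS9 by 0.51 and 0.74. VCP, the ATPase that pulls substrates out of the membrane, fell by 0.44 on polysomes (adjusted p = 0.0154) and showed -0.20 in the cytosol. MARCHF6, a ubiquitin ligase of the ER, and SELENOS, an adaptor for VCP, rose in the cytosol, by 0.58 and 0.55.

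Genes of protein entry, glycosylation and vesicle transport are read against 6.55% of all genes called lower on polysomes and 7.91% in the cytosol. Of 32 measured genes of the translocon, signal recognition particle, signal peptidase and oligosaccharyltransferase, 0 were called higher and 2 lower on polysomes, SPCS2 (-0.61) and SRP54 (-0.66). In the cytosol 0 were higher and 5 lower, with SRP9 at -1.07 (adjusted p = 4.74e-04), STT3B at -0.77, SRP19 at -0.67 and SPCS2 at -0.35. The SD of STT3B was 0.63 in the cytosolic PP242 arrays, against 0.10 in the cytosolic vehicle arrays, and that of SRP9 was 0.39 against 0.09. The medians of that list were -0.16 on polysomes and -0.11 in the cytosol. Of 32 genes of the COPII coat and cargo transport, 0 were called higher and 4 lower on polysomes, SEC22B (-0.74), SEC23IP (-0.60), SEC13 (-0.59) and PREB (-0.51). In the cytosol 2 were higher and 7 lower, and the medians were -0.11 on polysomes and -0.12 in the cytosol. The coat subunits SEC23A (-1.64, adjusted p = 6.90e-04), SEC23B (-1.06) and SEC24D (-0.87) were among the 7. The SD of SEC23A in the cytosolic PP242 arrays was 0.92, against 0.19 in the cytosolic vehicle arrays. For SEC23B these values were 0.87 and 0.20. SEC24D had low signals, with cytosolic means of 4.485 with PP242 and 5.358 with vehicle.

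The listed HSP70 and HSP90 relatives of HSPA5 and HSP90B1 were called only downward in these 2 comparisons. Of 11 listed, 8 were measured. Of these, 3 were lower on polysomes (6.55% of all genes) and 4 in the cytosol (7.91%), with medians of -0.23 and -0.41. HSPA14, an HSP70 relative bound to ribosomes, had group means of 8.34 with PP242 and 9.95 with vehicle on polysomes (-1.62 ± 0.15, adjusted p = 8.42e-07), and it fell by 1.38 in the cytosol. HSPA2 fell by 1.52 on polysomes and 1.53 in the cytosol, and HSPA4, an HSP110-type exchange factor, by 0.38 and 0.39. HSP90AA1, the inducible cytosolic HSP90, fell in the cytosol by 0.59 (adjusted p = 0.00433) and showed -0.14 on polysomes. HSP90AB1 (-0.11 on polysomes and 0.06 in the cytosol), the mitochondrial HSPA9 (-0.29 in both) and TRAP1 (0.04 and 0.46), and HSPA13 (-0.18 and -0.43) were not called.

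**Figure D5:**
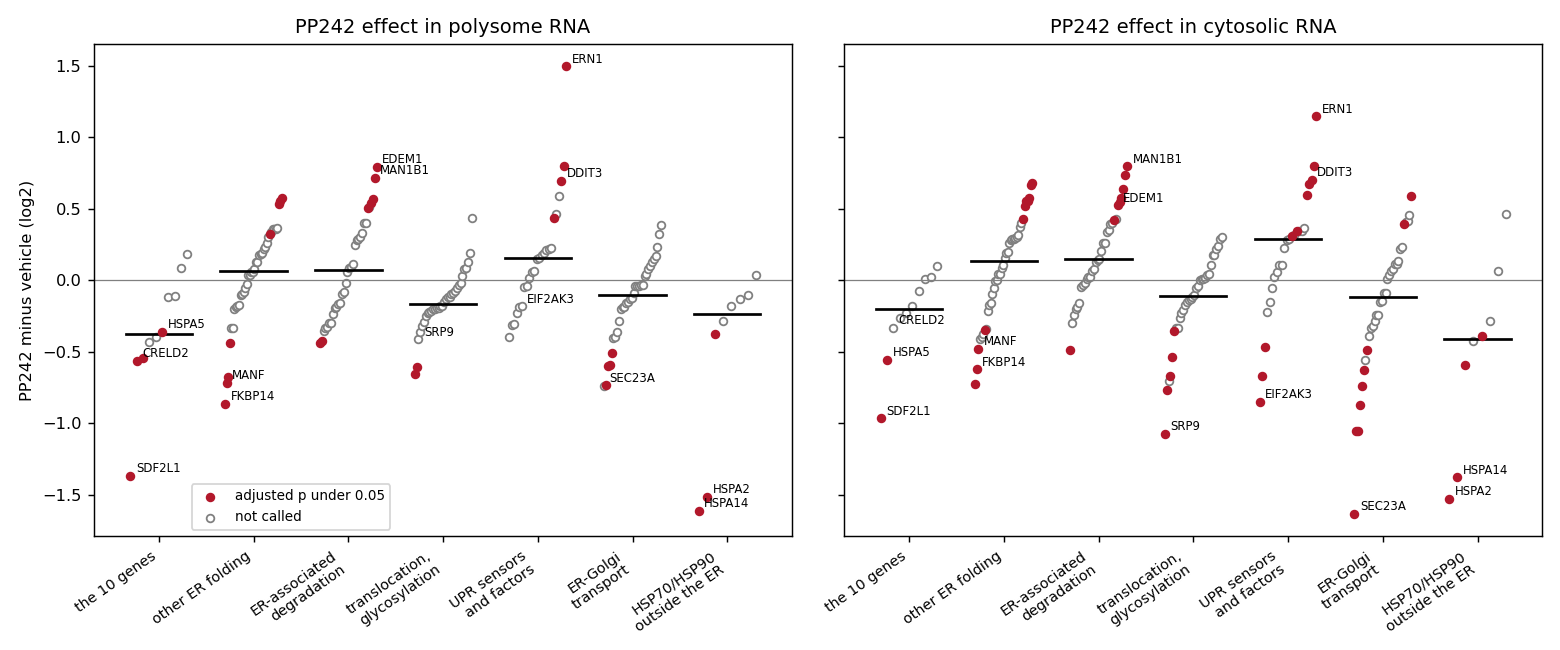
PP242 effect (y axis, log2, PP242 minus vehicle) for every measured gene of the 10 ER genes and 6 related lists, in polysome RNA (left) and cytosolic RNA (right); red points have an adjusted p under 0.05, open points do not, and the bars are medians. ERN1 lies highest in both panels at 1.495 and 1.15, and the open point beside SEC22B on the left is SEC23A at -0.74. The last list is labelled as outside the ER, which is not claimed for its member HSPA13.

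The genes with an exact ERSE numbered 25, of which 18 were measured, and few of them were called. On polysomes 2 were called lower (HSPA5 and CRELD2) and 1 higher, ERO1B, an oxidase that recharges the disulfide isomerases (0.55, adjusted p = 0.00581), with a median of -0.09. In the cytosol 1 was called lower, HSPA5, and the median was 0.01. The share of all genes called in either direction was 13.4% on polysomes and 16.5% in the cytosol, so these counts stand near or below the background. The ERSE-II carriers among the 10 genes differed as well, with -1.37 for SDF2L1 and -0.11 for HERPUD1 on polysomes.

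Across the 16 arrays, with levels centred within each pool, the genes most like HSPA5 among 9656 with a mean of at least 6 were MAD2L1, the spindle checkpoint protein (Pearson r = 0.978), the kinesin KIF23 (0.977), GGH, a hydrolase of folate polyglutamates (0.974), and TIPRL (0.970). The least like were ZNF512 (-0.958) and the sialyltransferase ST6GAL1 (-0.960). For XBP1 the most like were the TGF-beta pseudoreceptor BAMBI (0.950), AP3M2 (0.938), the hydroxylase JMJD6 (0.938) and the phosphatase CDC25A (0.936), and the least like were ABCD4 (-0.907) and ADTRP (-0.913). These values describe 16 arrays that share the PP242 and vehicle groups, so any gene that differs between those groups is favoured. For MAD2L1 the effect of PP242 was -1.34 on polysomes and -2.17 in the cytosol, both larger than those of HSPA5.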

How the data were processed

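The deposited table holds log2 signals of 54613 probe sets on 16 arrays, which the authors made with RMA (version not given), per the submitters' processing notes. Values ran from 1.65 to 14.61 and 0 were missing. Whether the arrays were normalized together is not given in the sources used here. Per the labels' protocols, polysome fractions of a 10% to 50% sucrose gradient were pooled and RNA was labelled with biotin.

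From these values, 41091 probe sets that list 1 gene gave 19775 genes, each by its probe set with the highest mean (10523 genes had a choice). Another 1801 probe sets list several genes and 11721 are not in the gene table, and both were left out. limma 3.58.1 in R 4.3.3 fitted 1 mean per group over 16 arrays, with eBayes and an intensity trend, two-sided, Benjamini-Hochberg adjusted over all genes. Polysome over cytosolic differences were taken after centring arrays on their medians. Values after ± are standard errors unless SD is named. On simulated data for the polysome comparison, 24% of genes planted at a log2 change of 0.5 and 94% of those planted at 1 were recovered. Of the calls, 4.2% were false. The simulation changed 50 genes per size on arrays drawn independently, so recovery in the real data may differ.

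No label says that replicates came from separate cultures, and the p-values then cover only the spread between these samples, which may be technical. Deviations of arrays with the same replicate number from groups that differ in pool or treatment only correlated above 0.1 in 16 of 16 pairs (0.164 to 0.510), so the numbers were taken to pair samples. Over all 24 pairs 23 were above 0.1 (lowest 0.026). The fit without the block is the one reported, and blocked values stand beside results they change.

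The 10 genes and the related lists were chosen with earlier results of these data known. Named are the 10 genes and, in each list, up to 4 called genes with the smallest p per PP242 comparison. Also named are 6 genes of the stress sensors and effectors and all measured genes of the list of HSP70 and HSP90 relatives. The 4 most and 2 least correlated genes were added. Genes of the ERSE group, PPP1R15B and probe set values were named after their values were seen. Alternatives covered probe set choice, normalization, low signals, the variance model, array weights, the replicate block and left-out arrays.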

Additional observations from a re-analysis of the deposited data

Results flagged for a closer look

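In 40 groups of 4 arrays (10 genes in 4 groups), 3 held an array far from the other 3, and chance alone flags about 1 in 20 groups. HSPA5 read 11.70 in cytosolic PP242 array 4, below the other 3 arrays of that group at 12.05 to 12.08. HERPUD1 read 9.80 in polysome vehicle array 3, below 10.04 to 10.07 in the others, and 9.68 in cytosolic PP242 array 3, below 9.90 to 9.93. The cytosolic HSPA5 effect was called with and without replicate number 4.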

How the results depend on the processing

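SDF2L1 on polysomes and HSPA5 in the cytosol kept their direction and their calls under each alternative run. Of the 10 genes, 2 to 3 were called on polysomes without 1 replicate number, 2 within numbers 1 and 2 alone and 1 within numbers 3 and 4 alone, and 6 with the replicate block. In the cytosol 2 were called without 1 replicate number, 1 within numbers 3 and 4 alone (SDF2L1 showed -0.96, adjusted p = 0.0837) and 3 with the block. HSPA5 on polysomes was not called within numbers 1 and 2 (-0.32, adjusted p = 0.119) or 3 and 4 (-0.40, 0.198), CRELD2 in neither (0.195 and 0.0605), and PDIA4 not within 3 and 4 (0.0872). No other call among the 10 genes changed with the block.

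Over all genes, leaving out 1 replicate number gave 1626 to 1889 calls on polysomes (1688 without number 1, 1626 without number 2) and 1543 to 3319 in the cytosol (1543 without number 2, 1604 without number 4), against 2641 and 3253. Numbers 3 and 4 alone gave 1085 and 1058, and the replicate block 4013 (2094 higher, 1919 lower) and 4929 (2755 higher, 2174 lower). In the cytosol, 1976 were called without PP242 arrays 2 and 4, and 2069 from the 8 arrays of the pool alone. Centring each array gave 1095 higher and 1681 lower on polysomes (1346 and 1295 without centring) and 1326 higher and 1791 lower in the cytosol (1689 and 1564 without). For association, the mean of all probe sets or the probe set with the highest variance gave 1 gene. The regression gave 702, with 2 of the 10, CRELD2 and SDF2L1, whose fitted slopes were near 0.

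For polysome over cytosolic levels, quantile normalization left 2 of the 10 genes called and cyclic loess 3. Over all genes 6831 were called with low signals left out, 6725 within numbers 3 and 4 alone, and without centring 3328 higher and 7103 lower in place of 7293 higher and 3054 lower. HERPUD1 turned below 0 with the mean of its probe sets (-0.085), the probe set with the highest variance (-0.52), quantile normalization (-0.13), cyclic loess (-0.13) and its other probe set (-0.63). HSPA5 turned to -0.023 and -0.16 under the 2 normalizations, and CALR to -0.13 with another probe set, a check added after seeing the data. Where no value above shows the cause of a change, the cause was not tested.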
